A study of Mus musculus with 6 samples.

Results

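Immediate early genes and heat shock genes were examined as 1 group of 32 genes, taken from the 45038 rows of the deposited expression table by gene symbol. They comprised 21 immediate early genes, among them the AP-1 and Egr transcription factors, and 11 genes of heat shock proteins and their partners. Each symbol matched exactly 1 row. The measurements came from 6 mouse RNA sequencing libraries, 3 called MI and 3 called Normal after the tissue labels. All mice were C57BL/6 and carried Tie2-Cre with Rosa-LSL-tdTomato, a reporter that Cre switches on. The Tie2 promoter is active in endothelial cells and also in part of the blood cell lineage, so the reporter does not mark endothelium alone. MI libraries came from infarcted tissue 3 weeks after the left anterior descending coronary artery was ligated, in mice operated on at 6 to 8 weeks of age. Normal libraries came from normal left ventricle and are labelled as without MI surgery. The sort, from collagenase digests, kept tdTomato-bearing cells that did not stain for F4/80, an antigen of macrophages. The labels give the same preparation text for both groups, including the dissection of infarcted tissue, so how the Normal hearts were handled is known only from their tissue and treatment labels. The titles number the libraries Ms1535, Ms1537 and Ms1608 in both groups. Whether a shared number marks a shared mouse is not stated, and p-values therefore reflect only how these libraries spread, which may be technical.

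Immediate early genes are transcribed within minutes of a stimulus without new protein synthesis. Growth factor, cytokine and stress signals reach them through MAP kinases, which act on serum response factor and its partners at CArG boxes and on CREB at cAMP response elements. Fos and Jun family proteins pair through leucine zippers to form AP-1, Egr proteins are zinc finger factors, and Dusp1, Zfp36, Btg2 and Socs3 close the loop by restraining signalling or message stability. Heat shock genes are driven by HSF1, which binds heat shock elements when unfolded protein accumulates, and their products fold or refold other proteins. Both sets are known to respond to tissue injury and to enzymatic dissociation, and no value here separates these.

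RefSeq promoter windows on GRCm38.p6, reaching from 250 bases before to 50 bases after each gene start, matched 24 of the 32 genes by symbol. They are shown because genes of these sets share known control elements, and each stretch below was chosen for a motif match. The stretches run 5′ to 3′ on the gene's strand with the matched motif in capitals.
Egr2, CArG box, chr10:67537752-67537851, plus strand: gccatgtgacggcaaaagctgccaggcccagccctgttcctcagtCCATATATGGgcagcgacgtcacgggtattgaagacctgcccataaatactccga
Zfp36, CArG box, chr7:28379232-28379331, minus strand: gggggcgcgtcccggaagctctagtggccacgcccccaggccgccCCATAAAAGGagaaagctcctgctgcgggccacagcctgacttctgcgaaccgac
Dusp1, cAMP response element, chr17:26508563-26508660, minus strand: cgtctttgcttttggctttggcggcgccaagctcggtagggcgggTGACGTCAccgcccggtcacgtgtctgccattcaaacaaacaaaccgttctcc
Btg2, cAMP response element, chr1:134079269-134079366, minus strand: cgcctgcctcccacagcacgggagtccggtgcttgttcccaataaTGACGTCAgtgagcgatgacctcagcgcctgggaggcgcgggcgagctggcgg
Hspe1, heat shock elements, chr1:55088014-55088121, plus strand: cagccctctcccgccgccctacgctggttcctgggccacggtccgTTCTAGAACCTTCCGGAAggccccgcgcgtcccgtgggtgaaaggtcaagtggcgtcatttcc
Hsph1, heat shock element, chr5:149636287-149636345, minus strand: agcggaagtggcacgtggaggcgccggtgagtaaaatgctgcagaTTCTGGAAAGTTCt

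A CArG box was found in the windows of 2 of 16 immediate early genes, Egr2 and Zfp36, and of 0 of 8 heat shock genes, against 1.81% of 27025 genes with a window. The cAMP response element TGACGTCA was found for 2 of the 16, Btg2 and Dusp1, and for 0 of the 8, against 2.03% of all. The heat shock element, searched as GAANNTTCNNGAA, was found for 3 of the 8, Hspd1, Hspe1 and Hsph1, and for 0 of the 16, against 0.662% of all. These motifs were searched on both strands. Genes without a matched window and DNA outside the windows were not searched, so an unnamed gene is not shown to lack a motif. Hspd1 and Hspe1, which encode the mitochondrial chaperonin and its lid, lie head to head, and 285 bases of their windows are the same DNA, so their 2 overlapping heat shock elements are 1 pair and not separate finds. The AP-1 site TGANTCA was found in 0 of the 24 matched genes, against 8.97% of all. The letters describe these windows only, and promoter activity was not measured.

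The depth of each library was read from its low values, which step by 1 fragment once scaled by gene length. Implied totals lay between 34.3 and 47.8 M fragments. At these totals 92.8% to 93.9% of the low values lay within 0.1 of a whole number, a share taken from the values used for the fit, so the totals are approximate. The labels word the sequencing as 10 megabyte reads, which was not reconciled with these totals. Normal Ms1608 stood apart, with correlations of log2(FPKM + 1) across genes of 0.54 to 0.68 with the other libraries, which correlated with each other at 0.80 to 0.92. These are correlations across genes, which are no replicates, and serve as description. The 10 endothelial markers listed for this check summed to 431, 1075 and 268 FPKM in MI, to 1280.0 and 904 FPKM in the Normal libraries Ms1535 and Ms1537, but to 9.14 FPKM in Normal Ms1608. There Kdr, the main VEGF receptor of endothelium, stood at 0.486 FPKM and Cdh5, VE-cadherin, at 1.20 FPKM. The 10 leukocyte markers summed to 2564, 2882 and 2669 FPKM in MI, to 329.8 and 489.7 FPKM in the Normal libraries Ms1535 and Ms1537, then to 4626 FPKM in Normal Ms1608. Endothelial markers were thus nearly absent from Normal Ms1608, and the tests below are given with and without it. Values are listed throughout in the order Ms1535, Ms1537 and Ms1608, in FPKM, which is scaled by transcript length and library total.

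Immediate early transcripts were low in 2 libraries only, Normal Ms1535 and Ms1537, and high in the other 4. Their summed level was 1493, 1615 and 1564 FPKM in the MI libraries and 491, 363 and 2494 FPKM in the Normal ones. All 19 immediate early genes that passed the filter on low values were above both Normal Ms1535 and Normal Ms1537 in every MI library, a pattern seen in 52.6% of all tested genes. The opposite pattern, every MI library below both, was seen for 0 of the 19 and for 1.75% of all. In Normal Ms1608, 13 of these 19 stood above every MI library, against 27.2% of all tested genes, and 16 were at least 2-fold above both other Normal libraries, against 33.5%. Of the 19, 0 were lower in Normal Ms1608 than in every MI library, where 53.7% of all tested genes were. Over all 30 tested genes, Normal Ms1608 was the highest of the 6 libraries for 15, against 26.8% of all tested genes, and Normal Ms1537 the lowest for 21, against 28.9%. MI Ms1608 was the highest for 7, of which 6 are heat shock genes, against 7.03%. Heat shock transcripts varied less, with summed levels of 1484, 1457 and 2032 FPKM in the MI libraries and 1109, 877 and 1727 FPKM in the Normal ones. Their medians of log2(FPKM + 1) placed Normal Ms1608 lower, at 6.27, 6.27 and 7.31 in MI and 5.74, 5.09 and 5.55 in Normal. Its sum rested largely on Hspa8, Hsp90ab1 and Dnaja1, at 522, 395 and 337 FPKM. The ratio of the summed immediate early to the summed heat shock level, which no single scaling factor per library can alter, was 1.01, 1.11 and 0.77 in MI, 0.44 and 0.41 in Normal Ms1535 and Ms1537, and 1.44 in Normal Ms1608. In bulk RNA, fewer cells of a type and less RNA per cell cannot be told apart.

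**Figure D1:**
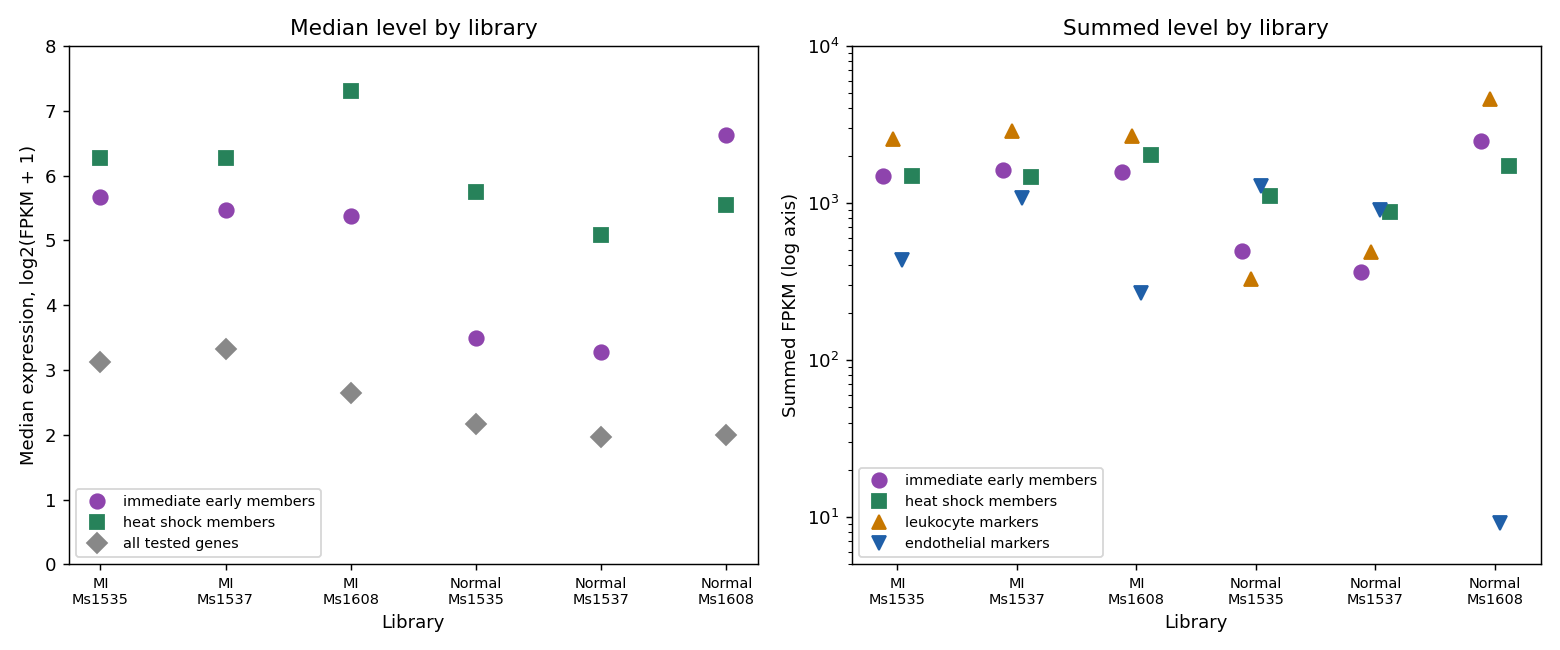
Levels in each of the 6 libraries. Left, the median of log2(FPKM + 1) over the 19 immediate early genes and 11 heat shock genes that passed the filter and over all tested genes. Right, FPKM summed over 21 immediate early genes, 11 heat shock genes and 10 markers of each cell type on a log axis, with points shifted sideways for legibility. Immediate early and leukocyte marker sums are both lowest in Normal Ms1535 and Ms1537 and highest in Normal Ms1608, where endothelial markers sum to 9.14 FPKM.

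The leukocyte marker sum had the same split of the libraries as the immediate early sum, low in Normal Ms1535 and Ms1537 and highest in Normal Ms1608. Of the 10 leukocyte markers, 10 lay above both of those Normal libraries in every MI library and 10 were at least 2-fold above both of them in Normal Ms1608. None was listed at 0 in any library. Ptprc, the leukocyte antigen CD45, was at 68.7, 77.9 and 75.9 FPKM in MI and at 3.12, 4.72 and 174 FPKM in Normal. Cd52, another leukocyte surface antigen, was at 1600, 1787 and 1258 FPKM in the MI libraries and 216.7, 322.9 and 2827 FPKM in the Normal ones. Despite the gate against F4/80, the 9 macrophage and monocyte markers summed to 979, 1327 and 2414 FPKM in the MI libraries and 167, 256 and 3192 FPKM in the Normal ones. The 7 neutrophil markers summed to 4563, 9797 and 12010 FPKM in the MI libraries and 2480, 2088 and 13380 FPKM in the Normal ones. For the 9 lymphocyte markers the sums were 317, 1244 and 993 FPKM in the MI libraries and 90.4, 337 and 1304 FPKM in the Normal ones. These sums rest on the most abundant markers. Normal Ms1608 was the highest library for 3 of 8 tested macrophage and monocyte, 2 of 7 neutrophil and 4 of 9 lymphocyte markers. It was the lowest for 1 marker of each of these lists. Its neutrophil median of log2(FPKM + 1) was 3.71, below the 4.72, 7.67 and 4.59 of the MI libraries. Fibroblast markers, 9 in number, summed to 5469, 5019 and 901 FPKM in the MI libraries and 635, 819 and 189 FPKM in the Normal ones, so that they did not share the high level of Normal Ms1608, where 1 of them was listed at 0. Among them Postn, periostin, was at 309.7, 704.9 and 41.7 FPKM in the MI libraries and 14.3, 14.9 and 2.07 FPKM in the Normal ones. The 8 cardiomyocyte markers summed to 208, 147 and 966 FPKM in the MI libraries and 789.6, 430.2 and 8.38 FPKM in the Normal ones, where Normal Ms1608 had 1 listed at 0. The 6 erythroid markers summed to 432, 1960.0 and 9600 FPKM in the MI libraries and 6833, 7233 and 1028 FPKM in the Normal ones, high in the 2 libraries where the immediate early sum was low and also in MI Ms1608, where it was not. The 7 mural cell markers summed to 24.8, 33.0 and 12.5 FPKM in the MI libraries and 26.4, 25.4 and 0.678 FPKM in the Normal ones. The part of other cell types in the immediate early levels was not tested.

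MI was compared with Normal by limma on log2(FPKM + 1) over the 10168 genes that reached 1 FPKM in 3 or more libraries, with Benjamini-Hochberg adjustment and a threshold of 0.05. With all 6 libraries, 0 of the 30 genes of this group that passed the filter were called, where 0.00983% of all tested genes were. That is the 1 small nuclear RNA gene Gm24890, named after its values were seen. Gm24890 was at 277, 527 and 252 FPKM in the MI libraries and listed at 0 in every Normal one. It passed the filter through the MI libraries alone, so that MI had to be higher. At an unadjusted p under 0.05, 2 of the 30 were higher in MI, Socs3 and Dnajb1, against 16.1% of all tested genes, and 0 were lower, against 0.207%. All 30 log2 differences, MI minus Normal, were above 0, as were 87.2% of all. When libraries were scaled by median ratio, upper quartile or quantiles, 11, 15 and 18 of 19 immediate early genes and 2, 4 and 6 of 11 heat shock genes stayed above 0. The median difference was 1.07 over 19 immediate early genes and 0.55 over 11 heat shock genes, beside 0.78 over all tested genes. Median-ratio, upper-quartile and quantile scaling moved the median of all genes to -0.03, 0.20 and -0.05. They moved the immediate early median to 0.14, 0.47 and 0.59 and the heat shock median to -0.53, -0.19 and 0.08, so the direction of the heat shock genes depends on the scaling.

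Without Normal Ms1608, limma called 10 of the 30 genes, all higher in MI, which is 33.3% where 5.86% of all tested genes were called. They were Fos, Fosb, Fosl2, Egr2, Nr4a2, Zfp36, Dusp1, Btg2, Socs3 and Dnajb1, thus 9 immediate early genes and 1 heat shock gene. The median log2 difference was then 1.88 for immediate early and 0.81 for heat shock genes, beside 0.83 for all tested genes. In the same comparison 10 of 10 leukocyte markers were called, with a median of 3.07. So were 4 of 8 lymphocyte, 3 of 7 macrophage and monocyte and 2 of 7 neutrophil markers. Of the endothelial, fibroblast, mural, cardiomyocyte and erythroid markers 0 were called. The fibroblast markers still had a median of 2.23, and 7 of 9 were higher in MI at an unadjusted limma p under 0.05. The endothelial, mural, cardiomyocyte and erythroid medians were -0.95, -0.15, -0.68 and -1.67. At an unadjusted p under 0.05, 20 of the 30 were higher, against 31.5% of all, and 0 were lower, against 0.791%. The filter was kept at 3 libraries, so a gene under 1 FPKM in Normal Ms1535 and Ms1537 passed through the MI libraries alone. For such a gene MI had to be higher. Myc, at 0.584 and 0.370 FPKM there, is one of them among the 20, and the shares of all genes hold others. Leaving out Normal Ms1535 or Normal Ms1537 in its place gave 0 calls among the 30, with immediate early medians of 0.61 and 0.42 and heat shock medians of 0.59 and 0.31. Without MI Ms1608 the heat shock median was 0.33, and without MI Ms1535 it was 0.90. The calls without Normal Ms1608 rest on the values as deposited. After median-ratio, upper-quartile or quantile scaling of the same 5 libraries 0 of the 30 were called by limma. At an unadjusted p under 0.05 there were 10 of 19 immediate early genes and 1 of 11 heat shock genes under each scaling, against 18.6%, 18.5% and 16.6% of all tested genes. The immediate early median then stayed above that of all genes, at 1.16, 1.16 and 1.01 beside 0, 0 and -0.03, with 18 of 19 above 0 in each, and the heat shock median was -0.19, -0.18 and -0.16. Ier3 was the exception under the first 2 of these scalings and Jund under quantile scaling.

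**Figure D2:**
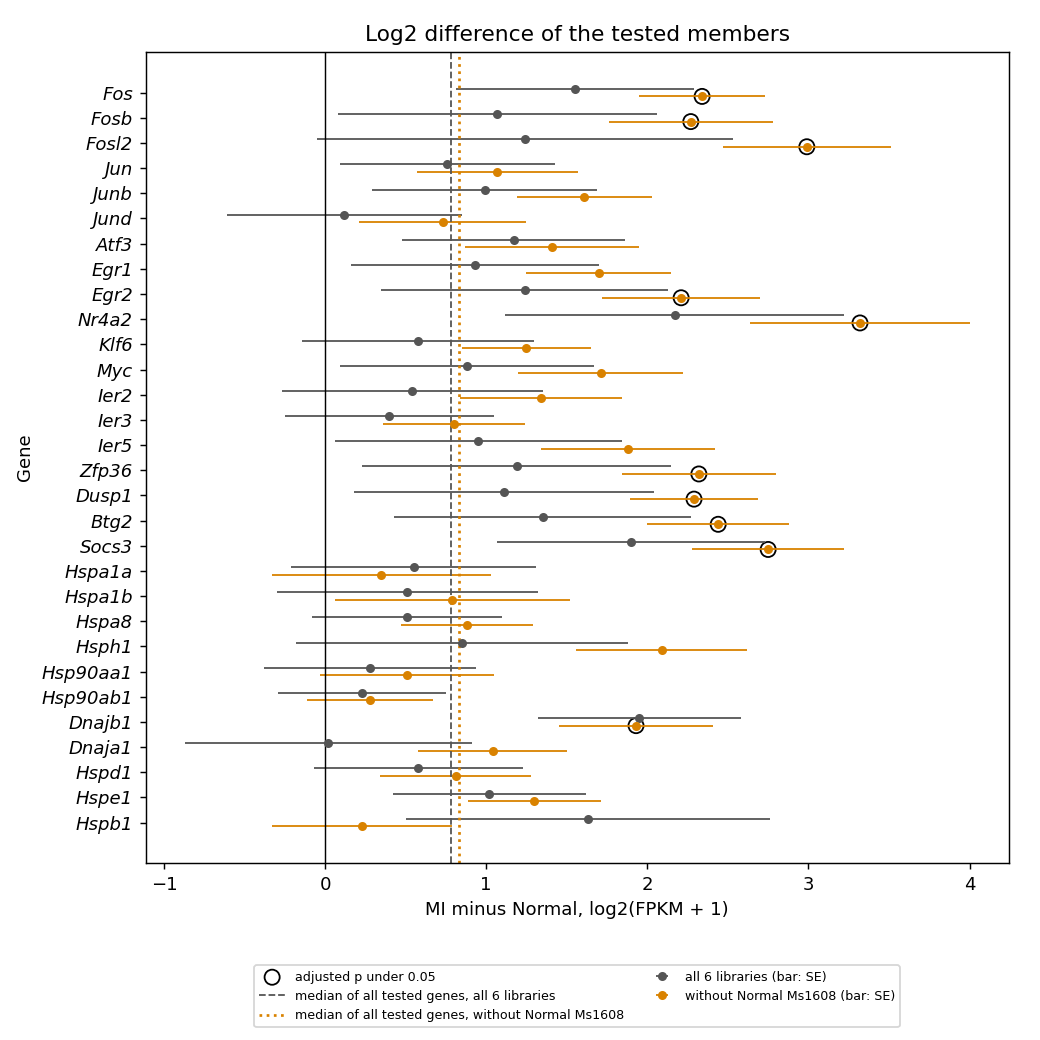
Log2 difference of log2(FPKM + 1), taken as MI minus Normal, for the 30 tested genes with bars for the standard error, with all 6 libraries (grey) and without Normal Ms1608 (orange). Circles mark an adjusted p under 0.05 and vertical lines the median of all tested genes. The 10 circled values are all from the comparison without Normal Ms1608, and with all libraries 4 of the 11 heat shock genes lie to the right of the median of all genes.

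Among the Fos family, Fos, the prototype AP-1 subunit (chr12:85473890-85477273, plus strand, GRCm38), was at 324, 399 and 319.7 FPKM in the MI libraries and 67.1, 67.7 and 354 FPKM in the Normal ones. The MI values lay close together and Normal Ms1608 lay within their range, while the other Normal libraries were far below. The MI mean was 348 ± 44.6 FPKM (SD, n = 3), 5.16 times the mean of Normal Ms1535 and Ms1537. With all 6 libraries the log2 difference of Fos was 1.55 (SE 0.74, limma adjusted p = 0.317), and without Normal Ms1608 it was 2.34 (SE 0.39, limma adjusted p = 0.0194). Once those 5 libraries were scaled by median ratio, upper quartile or quantiles, it was 1.28, 1.28 and 1.59 (limma adjusted p = 0.121, 0.117 and 0.111).

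Fosb, a related subunit that is sharply inducible, was at 9.81, 16.7 and 9.73 FPKM in the MI libraries and 1.88, 1.43 and 30.6 FPKM in the Normal ones. Normal Ms1608 held the highest level of Fosb and the other Normal libraries the lowest. Fosl2, which encodes Fra-2, was at 49.9, 30.1 and 22.3 FPKM in the MI libraries and 4.03, 2.51 and 158 FPKM in the Normal ones. Normal Ms1608 held 48.4 times the mean of the other Normal libraries for Fosl2, the largest such ratio among the 32 genes. Without Normal Ms1608 the log2 differences were 2.27 for Fosb (SE 0.51, limma adjusted p = 0.0385) and 2.99 for Fosl2 (SE 0.52, limma adjusted p = 0.0216). Fosl1, which encodes Fra-1, was scarcely detected, at 0.0270, 1.28 and 0.564 FPKM in the MI libraries and 0.0301, 0.243 and 0.0175 FPKM in the Normal ones. It did not pass the filter, and 3 of its values lie below the 0.0345 to 0.0476 FPKM that 3 fragments give on a gene of 2 kb.

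Jun family members are the partners of Fos proteins, and none was called with all 6 libraries or without Normal Ms1608. Junb was called with array weights, which weigh each library by its spread, and with both Ms1608 libraries left out (limma adjusted p = 0.0116 and 0.0434). Those 2 settings called 3288 of 10168 and 1415 of 8695 tested genes. Jun was at 55.7, 95.2 and 36.4 FPKM in the MI libraries and 26.5, 27.4 and 52.2 FPKM in the Normal ones. Junb was at 138, 101 and 152 FPKM in the MI libraries and 44.4, 38.3 and 154 FPKM in the Normal ones. In both, Normal Ms1608 lay among or just above the MI values. Jund, which is expressed in many resting cells, was at 2.59, 2.13 and 6.38 FPKM in the MI libraries and 1.99, 1.32 and 8.35 FPKM in the Normal ones, so that both Ms1608 libraries stood above the other 4. The low Jund level is uncertain, since the antisense gene Gm11175 overlaps it and the counting was not stated to use strand. Jun and Junb also overlap genes on the other strand, Junos and Prdx2. Without Normal Ms1608 the log2 differences were 1.07 for Jun, 1.61 for Junb and 0.73 for Jund (limma adjusted p = 0.171, 0.0535 and 0.335). Atf3, a stress-induced partner of Jun proteins, was at 45.8, 15.5 and 26.2 FPKM in the MI libraries and 10.2, 8.54 and 16.3 FPKM in the Normal ones. Unlike Fosl2, its level in Normal Ms1608 was within the MI range and 1.73 times the mean of the other Normal libraries.

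Egr factors, which bind GC-rich promoter sites, had 1 abundant, 1 moderate and 1 nearly absent member. Egr1 was at 142, 235 and 203 FPKM in the MI libraries and 75.7, 43.7 and 292 FPKM in the Normal ones. Egr2 was at 13.5, 12.4 and 8.77 FPKM in the MI libraries and 1.70, 1.64 and 19.4 FPKM in the Normal ones. For both, Normal Ms1608 was the highest library and Normal Ms1535 and Ms1537 the lowest. The MI mean was 3.24 times the mean of those 2 libraries for Egr1 and 6.91 times for Egr2. Without Normal Ms1608 the log2 difference was 1.70 for Egr1 (SE 0.45, limma adjusted p = 0.057) and 2.21 for Egr2 (SE 0.49, limma adjusted p = 0.0376). The difference between the Egr1 and Egr2 changes was not tested. Egr3 did not pass the filter, with 0.0501, 0.0397 and 0.0928 FPKM in the MI libraries and 0.0186 and 0.0216 FPKM in Normal Ms1535 and Ms1608, and was listed at 0 in Normal Ms1537.

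**Figure D3:**
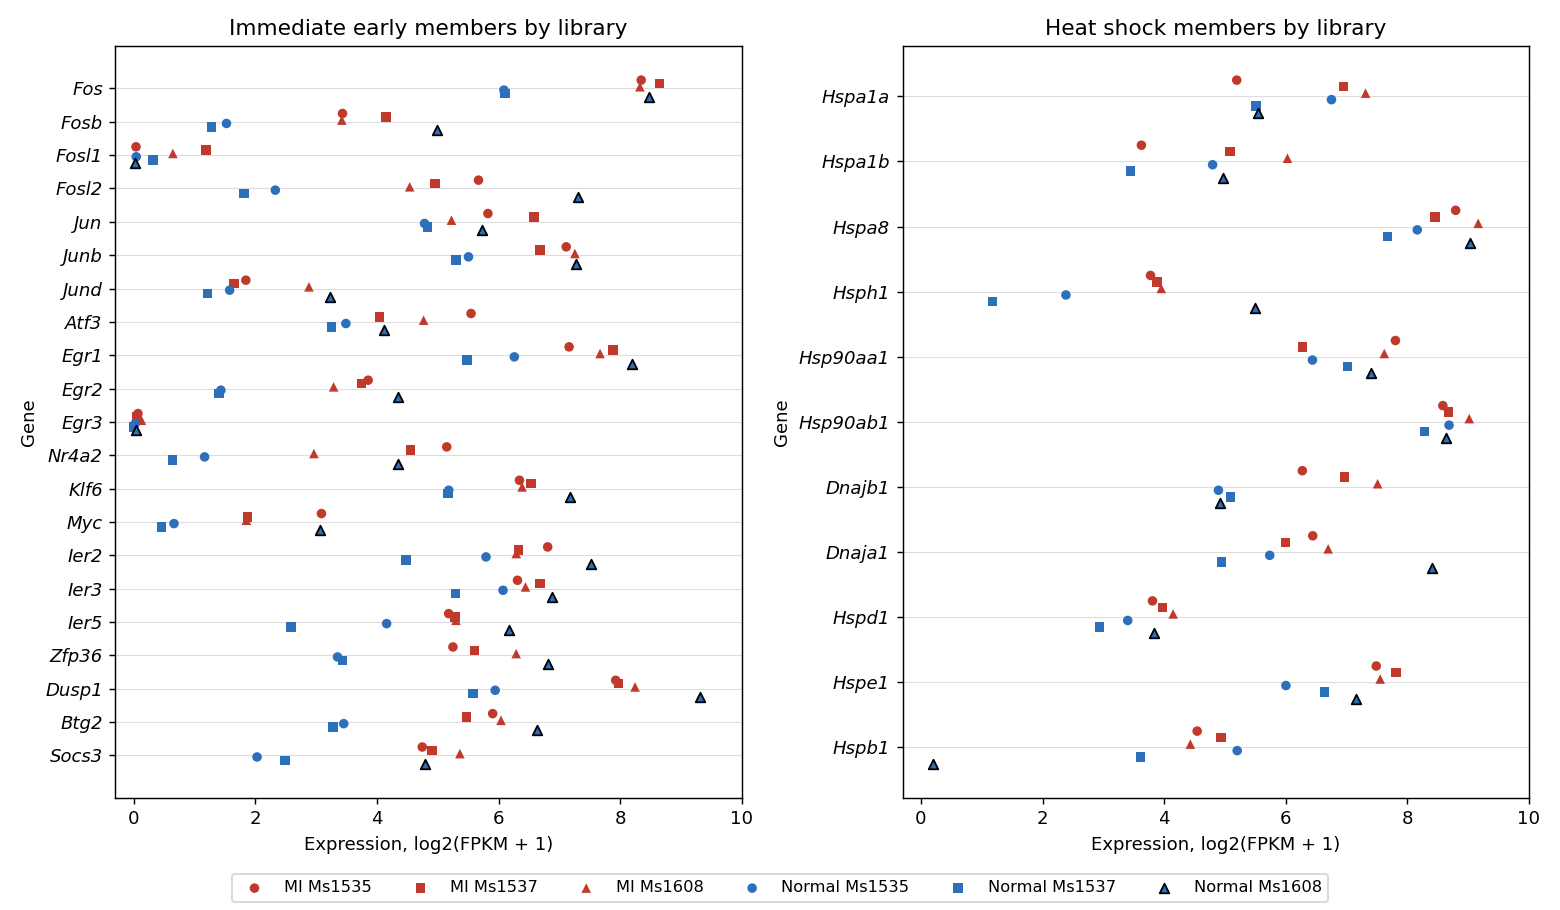
Expression of each of the 32 genes in each library on the log2(FPKM + 1) scale, with MI in red, Normal in blue, 1 symbol for each library number and Normal Ms1608 outlined in black. Most immediate early genes show 2 low blue points, Normal Ms1535 and Ms1537, and an outlined triangle within or above the red points. Heat shock genes overlap more, and Dnajb1 and Hspe1 are the 2 tested genes with every red point above every blue one.

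Among the other inducible factors, Nr4a2, an orphan nuclear receptor, was at 34.5, 22.4 and 6.81 FPKM in the MI libraries and 1.24, 0.554 and 19.4 FPKM in the Normal ones. Its MI mean was 23.6 times that of Normal Ms1535 and Ms1537, the largest such ratio among the 32, although the MI libraries themselves spread from 6.81 to 34.5 FPKM. The log2 difference of Nr4a2 was 2.17 with all libraries (SE 1.05, limma adjusted p = 0.319) and 3.32 without Normal Ms1608 (SE 0.68, limma adjusted p = 0.0329). Myc, which drives growth and ribosome production, was at 7.50, 2.67 and 2.61 FPKM in the MI libraries and 0.584, 0.370 and 7.40 FPKM in the Normal ones. Klf6, a zinc finger transcription factor, was at 80.3, 91.5 and 82.7 FPKM in the MI libraries and 35.3, 35.0 and 144 FPKM in the Normal ones. Klf6 varied little among the MI libraries, which all lay between the pair of lower Normal values and Normal Ms1608. Neither Myc nor Klf6 was called without Normal Ms1608 (limma adjusted p = 0.072 and 0.0843).

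Ier genes, named for their immediate early response, had a median log2 difference of 0.54 with all libraries. Ier2 was at 111, 79.3 and 77.3 FPKM in the MI libraries and 54.5, 21.4 and 183 FPKM in the Normal ones. Ier3, which is linked to survival signalling, was at 78.5, 102 and 86.1 FPKM in the MI libraries and 66.4, 38.2 and 117 FPKM in the Normal ones. Ier5, which takes part in HSF1 regulation, was at 35.3, 38.0 and 38.4 FPKM in the MI libraries and 16.9, 5.02 and 70.9 FPKM in the Normal ones. In all 3 genes Normal Ms1608 was the highest library and Normal Ms1537 the lowest. None was called with all 6 libraries or without Normal Ms1608, with limma adjusted p of 0.114, 0.227 and 0.068 for Ier2, Ier3 and Ier5 in the latter. Array weights called Ier2 and Ier5 (limma adjusted p = 0.0335 and 0.0216), in a setting that called 3288 of 10168 tested genes.

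All 4 feedback regulators were called without Normal Ms1608, where 5.86% of all tested genes were, and 0 of the 4 after any of the 3 scalings of the same libraries. Dusp1, a phosphatase that switches off MAP kinases, was at 242, 249.8 and 303 FPKM in the MI libraries and 60.6, 46.7 and 632 FPKM in the Normal ones. Zfp36, which encodes the protein tristetraprolin that speeds decay of cytokine messages, was at 37.1, 47.8 and 77.3 FPKM in the MI libraries and 9.21, 9.82 and 111 FPKM in the Normal ones. Btg2, an antiproliferative gene, was at 58.9, 43.5 and 64.9 FPKM in the MI libraries and 9.96, 8.70 and 98.1 FPKM in the Normal ones. These 3 genes, whose promoter stretches are shown above, had Normal Ms1608 as the highest library and the other Normal libraries as the lowest. Socs3, which restrains JAK and STAT signalling, was at 25.8, 29.0 and 40.2 FPKM in the MI libraries and 3.08, 4.63 and 26.5 FPKM in the Normal ones, with Normal Ms1608 inside the MI range. Without Normal Ms1608 the log2 differences were 2.29 for Dusp1, 2.32 for Zfp36, 2.44 for Btg2 and 2.75 for Socs3 (limma adjusted p = 0.0216, 0.0329, 0.024 and 0.0216). After median-ratio scaling of those 5 libraries Socs3 stood at 1.80, Btg2 at 1.43, Zfp36 at 1.31 and Dusp1 at 1.22 (limma adjusted p = 0.137, 0.161, 0.237 and 0.166).

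Among heat shock genes of the Hsp70 class the groups overlapped for every member. Hspa8, the constitutive cytosolic Hsp70, was the most abundant of them, at 443, 349 and 573 FPKM in the MI libraries and 286, 204 and 522 FPKM in the Normal ones. Hspa1a, an Hsp70 gene that is strongly heat-inducible (chr17:34969190-34972156, minus strand), was at 35.6, 122 and 158 FPKM in the MI libraries and 107, 44.6 and 45.9 FPKM in the Normal ones. The lowest and the highest value of Hspa1a were both in MI libraries, so the groups overlapped. Hspa1b (chr17:34956436-34959238, minus strand), its neighbour, was at 11.4, 32.9 and 64.3 FPKM in the MI libraries and 26.8, 9.93 and 30.3 FPKM in the Normal ones. The coding sequences of Hspa1a and Hspa1b agree at 1915 of 1926 aligned positions (99.4%) in GENCODE M21, so how reads were divided between them is uncertain. Gm20481 also overlaps Hspa1a on the other strand, at chr17:34969912-34972136, and the counting was not stated to use strand. The ratio of Hspa1a to Hspa1b was 3.14, 3.72 and 2.46 in MI and 3.98, 4.49 and 1.51 in Normal. Log2 differences without Normal Ms1608 were 0.88 for Hspa8, 0.35 for Hspa1a and 0.79 for Hspa1b (limma adjusted p = 0.17, 0.706 and 0.44).

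Hsph1, the Hsp110 exchange factor for Hsp70, followed the immediate early pattern. It was at 12.7, 13.8 and 14.5 FPKM in the MI libraries and 4.23, 1.26 and 44.3 FPKM in the Normal ones. The MI values of Hsph1 were nearly equal, and Normal Ms1608 was 3.25 times their mean. Without Normal Ms1608, Hsph1 differed by 2.09 on the log2 scale (SE 0.53, limma adjusted p = 0.0531). The Hsp90 genes had a median log2 difference of 0.25 with all libraries. Hsp90aa1, the inducible isoform, was at 223, 76.4 and 196 FPKM in the MI libraries and 85.8, 128 and 168 FPKM in the Normal ones, and its lowest level was in an MI library. Hsp90ab1, the constitutive isoform, was at 383, 408 and 517 FPKM in the MI libraries and 411, 309.9 and 395 FPKM in the Normal ones. The MI mean of Hsp90ab1 was 1.21 times the mean of Normal Ms1535 and Ms1537, with a log2 difference of 0.23 with all libraries (SE 0.52, limma adjusted p = 0.848).

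J-domain proteins, which deliver substrates to Hsp70, went separate ways in Normal Ms1608. Dnajb1, the stress-inducible Hsp40 (chr8:83608193-83612653, plus strand), was at 76.3, 124 and 181 FPKM in the MI libraries and 28.7, 33.1 and 29.2 FPKM in the Normal ones. The groups did not overlap and the Normal values were nearly equal, Normal Ms1608 included. The MI mean of 127 ± 52.6 FPKM (SD, n = 3) compares with 30.3 ± 2.39 FPKM in Normal (SD, n = 3). The log2 difference of Dnajb1 was 1.95 with all libraries (SE 0.63, limma adjusted p = 0.247) and 1.93 without Normal Ms1608 (SE 0.48, limma adjusted p = 0.0494). Over all settings tried it lay between 0.87 and 2.27, with adjusted p from 0.014 to 0.906. Dnaja1, a partner of constitutive Hsp70, was at 86.1, 62.8 and 103 FPKM in the MI libraries and 52.3, 29.8 and 337 FPKM in the Normal ones. Its Normal Ms1608 value was 4.02 times the MI mean, and its log2 difference with all libraries was 0.02 (SE 0.89, limma adjusted p = 0.994).

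Mitochondrial chaperones and the small heat shock protein differed again. Hspe1, the lid of the mitochondrial chaperonin, was at 179, 224 and 187 FPKM in the MI libraries and 63.1, 98.6 and 142 FPKM in the Normal ones. All MI values of Hspe1 were above all Normal values. Hspd1, the chaperonin itself, was at 13.0, 14.7 and 16.7 FPKM in the MI libraries and 9.57, 6.67 and 13.3 FPKM in the Normal ones. The 2 genes share their promoter DNA, shown above under Hspe1, and their log2 differences were 1.02 and 0.58 with all libraries (limma adjusted p = 0.395 and 0.656), and -0.07 and -0.42 after median-ratio scaling. Groups without overlap and MI higher were found for 2 of the 30 tested genes, Dnajb1 and Hspe1, against 25.0% of all tested genes, and 0 had every MI library below every Normal one, against 0.354%. Hspb1, which encodes Hsp27 and is abundant in endothelium and muscle, was at 22.3, 29.6 and 20.6 FPKM in the MI libraries and 35.8, 11.2 and 0.149 FPKM in the Normal ones. It alone of the 30 was at least 2-fold lower in Normal Ms1608 than in both other Normal libraries, which held for 38.7% of all tested genes. Among tested markers it held for 10 of 10 endothelial, 4 of 4 mural, 4 of 4 cardiomyocyte, 5 of 5 erythroid and 7 of 9 fibroblast markers.

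Other genes of these pathways were read from 7 fixed lists. By limma with all 6 libraries, 0 genes of these lists were called in either direction. At an unadjusted p under 0.05, 3 of 6 further AP-1 dimer partners were higher in MI, as were 0 of 24 further immediate early genes, 2 of 12 further feedback regulators, 0 of 10 upstream kinases and factors, 3 of 23 further heat shock response genes, 0 of 9 chaperones of the endoplasmic reticulum and mitochondria and 0 of 7 subunits of the cytosolic chaperonin CCT, against 16.1% of all tested genes. None was lower at that level, against 0.207% of all. Without Normal Ms1608, 9 of 24 further immediate early genes, 3 of 12 feedback regulators, 0 of 6 AP-1 partners, 1 of 10 upstream genes, 0 of 22 heat shock response genes, 1 of 9 compartment chaperones and 1 of 7 CCT subunits passed the threshold, against 5.86% of all tested genes. When the same 5 libraries were scaled, 3, 3 and 2 genes of the whole table passed it under median-ratio, upper-quartile and quantile scaling.

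Of each list, the 2 tested genes with the largest absolute log2 difference are given here. They were chosen for that difference, so their direction is a description and no support, and they did not all repeat the immediate early pattern. Batf3, a leucine zipper partner of Jun proteins, was at 6.59, 2.29 and 2.02 FPKM in the MI libraries and 0.0367, 0.595 and 0.127 FPKM in the Normal ones. With all libraries Batf3 differed by 1.78 on the log2 scale (SE 0.49, limma adjusted p = 0.245), on values that passed the filter through the MI libraries alone, so that MI had to be higher. Nr4a3, a nuclear receptor related to Nr4a2, was at 26.4, 11.0 and 1.81 FPKM in the MI libraries and 0.428, 0.170 and 5.86 FPKM in the Normal ones, and Dusp5, a nuclear phosphatase for ERK, at 22.0, 10.8 and 9.07 FPKM against 0.511, 0.898 and 18.9 FPKM. Both repeated the low pair of Normal libraries and the higher Normal Ms1608. Without Normal Ms1608 both passed the filter through the MI libraries alone, so that MI had to be higher. Cyr61, a matricellular gene of adherent cells, was at 35.2, 74.1 and 11.9 FPKM in the MI libraries and 15.9, 15.7 and 0.580 FPKM in the Normal ones, and Bag3, an HSF1 target and Hsp70 cochaperone, at 18.9, 39.6 and 31.1 FPKM against 27.7, 8.41 and 0.619 FPKM. For Cyr61 and Bag3, Normal Ms1608 was the lowest library, as it was for 10 of 10 endothelial, 4 of 4 mural, 4 of 4 cardiomyocyte and 7 of 9 fibroblast markers tested. It was also the lowest for 1 of 5 erythroid, 1 of 8 macrophage and monocyte, 1 of 7 neutrophil, 1 of 9 lymphocyte and 0 of 10 leukocyte markers. Of all tested genes, 53.7% were below every MI library in Normal Ms1608, and 38.7% were at least 2-fold below both other Normal libraries. Mafg, a small Maf protein that dimerises with Fos, was at 4.14, 8.90 and 3.47 FPKM in the MI libraries and 0.459, 1.40 and 0.168 FPKM in the Normal ones, and Errfi1, a feedback inhibitor of the EGF receptor, at 3.92, 5.70 and 7.17 FPKM against 1.65, 1.32 and 0.112 FPKM. In Mafg and Errfi1, Normal Ms1608 was the lowest library.

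Among upstream kinases, Mapk9, which encodes JNK2, was at 5.66, 14.5 and 3.19 FPKM in the MI libraries and 1.18, 1.81 and 2.15 FPKM in the Normal ones. Mapk8, which encodes JNK1, was at 4.80, 7.12 and 4.90 FPKM in the MI libraries and 1.70, 4.69 and 0.115 FPKM in the Normal ones. Hspa2, an Hsp70 relative, was at 10.3, 24.3 and 4.09 FPKM in the MI libraries and 4.87, 1.21 and 0.125 FPKM in the Normal ones. In these 3 genes Normal Ms1608 was below every MI library.

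Clpp, a mitochondrial protease, was at 3.88, 19.4 and 7.20 FPKM in the MI libraries and 9.90, 3.55 and 0.261 FPKM in the Normal ones, and Dnajb11, a J protein of the endoplasmic reticulum, at 37.5, 49.8 and 26.4 FPKM against 23.4, 10.2 and 16.9 FPKM. The CCT subunit Cct8 was at 20.3, 42.3 and 31.7 FPKM in the MI libraries and 11.5, 7.62 and 35.0 FPKM in the Normal ones. Cct2 was at 113.7, 118.8 and 79.2 FPKM in the MI libraries and 30.1, 27.5 and 248 FPKM in the Normal ones, with a log2 difference of 1.79 without Normal Ms1608 (limma adjusted p = 0.0442). Cct2 thus had Normal Ms1608 highest and the other Normal libraries lowest, a pattern not particular to the immediate early genes. All 7 tested CCT subunits lay above both Normal Ms1535 and Ms1537 in every MI library, against 52.6% of all tested genes. In Normal Ms1608, 6 of the 7 were at least 2-fold above both other Normal libraries, against 33.5%. There 5 of the 7 stood above every MI library, against 27.2%.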

How the data were processed

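RNA from 6 sorted-cell libraries was amplified by T7 in vitro transcription and sequenced with paired ends, per the labels' protocols, and amplification can widen the spread between libraries. The authors deposited FPKM values for all genes in 1 table; STAR 2.4.2a, Cufflinks 2.2.1 and GRCm38 are named in the submitters' processing notes. The annotation release, strand setting and treatment of multi-mapping reads are not given in the sources used here, and 11 of the 32 genes overlap a gene on the other strand. On the same strand 3 of them, Dusp1, Hspa8 and Dnaja1, overlap another gene, so how reads there were assigned is also uncertain.

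From the deposited FPKM values, log2(FPKM + 1) was tested with limma 3.58.1 (R 4.3.3, eBayes with trend, group as the only term) on genes that reached 1 FPKM in 3 or more libraries, without further scaling. This scale understates changes of low genes. An exact permutation test of 3 against 3 cannot go below p = 0.1 and was not used. Depth was fitted on genes with a single transcript in GENCODE M21, in which 98.6% of the IDs were found. The procedure was checked on simulated data with independent noise of equal spread in every library. That setting holds no outlying library, so it does not bear on calls that depend on Normal Ms1608. Every one of the 32 genes was reported, and from each pathway list the 2 tested genes of largest absolute log2 difference were named, with chosen markers. The members and lists were chosen with earlier results of these data known. Alternatives covered pseudocount, filter, scaling, array weights, a replicate block and left-out libraries. Scaling without Normal Ms1608 was added after seeing the data.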

Additional observations from a re-analysis of the deposited data

How the results depend on the processing

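Over all settings and single genes, 452 values kept their direction and side of the threshold, 42 newly passed it and 73 changed direction. Leaving out 1 library at a time gave 0 to 578 genes called and 0 to 10 of the 32 genes. The 578 and 10 come from leaving out Normal Ms1608. Array weights, which gave that library 0.117 against 0.738 to 2.66 for the others, called 3288 of 10168 tested genes and 19 of 30 of this group. Leaving out both Ms1608 libraries called 1415 of 8695 tested genes and 13 of 29 of this group. Both include the 10; array weights add Atf3, Egr1, Hspe1, Hsph1, Ier2, Ier5, Junb, Klf6 and Myc, and the other adds Egr1, Hsph1 and Junb. With Normal Ms1608 left out, median-ratio, upper-quartile and quantile scaling called 3, 3 and 2 genes. The cause of these changes was not tested. The labels do not say whether a shared number marks a pair, and deviations of same-numbered libraries correlated across genes at -0.05, 0.10 and 0.09, too weakly to settle it, so the fit without a block was used. With the replicate block, 1 gene and 0 of the 32 were called, with medians of 1.07 and 0.55, so no call changed.

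Log2 differences changed direction as follows. Leaving out 1 library gave ranges of -0.01 to 0.76 for Hsp90aa1, -0.69 to 1.04 for Dnaja1, -0.28 to 0.73 for Jund, -0.05 to 1.15 for Hspa1b, -0.18 to 1.34 for Ier2 and -0.07 to 2.09 for Hsph1. A pseudocount of 5 gave Dnaja1 -0.01, array weights gave Hspa1a -0.12 and leaving out both Ms1608 libraries gave Hspa1a -0.06. Median-ratio scaling gave a heat shock median of -0.53, with Jun -0.31, Junb -0.09, Jund -0.65, Egr1 -0.16, Klf6 -0.50, Ier2 -0.53, Ier3 -0.68, Ier5 -0.09, Hspa1a -0.53, Hspa1b -0.53, Hspa8 -0.58, Hsph1 -0.08, Hsp90aa1 -0.81, Hsp90ab1 -0.87, Dnaja1 -1.06, Hspd1 -0.42 and Hspe1 -0.07. Upper-quartile scaling gave a heat shock median of -0.19, with Jund -0.35, Klf6 -0.15, Ier2 -0.19, Ier3 -0.34, Hspa1a -0.19, Hspa1b -0.19, Hspa8 -0.23, Hsp90aa1 -0.46, Hsp90ab1 -0.52, Dnaja1 -0.71 and Hspd1 -0.10. Quantile scaling gave Jund -0.53, Hspa1b -0.13, Hsp90aa1 -0.07, Hsp90ab1 -0.01, Dnaja1 -0.37 and Hspd1 -0.18.

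With Normal Ms1608 left out, median-ratio scaling gave a heat shock median of -0.19, with Ier3 -0.26, Hspa1a -0.70, Hspa1b -0.22, Hspa8 -0.19, Hsp90aa1 -0.56, Hsp90ab1 -0.80, Dnaja1 -0.02, Hspd1 -0.17 and Hspb1 -0.79. Upper-quartile scaling then gave a heat shock median of -0.18, with Ier3 -0.25, Hspa1a -0.70, Hspa1b -0.22, Hspa8 -0.18, Hsp90aa1 -0.55, Hsp90ab1 -0.79, Dnaja1 -0.01, Hspd1 -0.16 and Hspb1 -0.79. Quantile scaling then gave a heat shock median of -0.16, with Jund -0.06, Hspa1a -0.47, Hspa1b -0.16, Hsp90aa1 -0.24, Hsp90ab1 -0.28, Hspd1 -0.19 and Hspb1 -0.71. Depth limits Fosl1 and Egr3, whose levels lie near the value of 3 fragments in several libraries.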
